A study of Mus musculus with 8 samples.

Results

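The NF-κB subunits and inhibitors measured here were 10 genes taken by symbol from the count tables. The subunits were *Rela*, *Relb*, *Rel*, *Nfkb1*, and *Nfkb2*, and the inhibitors were *Nfkbia*, *Nfkbib*, *Nfkbie*, *Nfkbiz*, and *Tnfaip3*. All 10 were found among the 18533 gene symbols, and all 10 were among the 13535 genes that passed edgeR's filter on low counts. RNA was sequenced from MASMCs, primary smooth muscle cells grown from the aortas of male mice aged 4 to 6 weeks. The groups were WT (n = 4) and Hint1-/- (n = 4), and both had been given PDGF-BB, a growth factor that drives smooth muscle cells away from the contractile state, at 20 ng/mL for 24 hours. For the Hint1-/- mice the study names no Cre driver, unlike for its smooth muscle-specific line, so the deletion was not limited to smooth muscle. Untreated cells were not analysed here, so each comparison below is one of genotype under PDGF-BB.

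NF-κB proteins work as dimers of Rel-family subunits. RelA, RelB, and c-Rel carry a domain that activates transcription, whereas *Nfkb1* and *Nfkb2* encode the precursors p105 and p100, which are processed to p50 and p52. IκB proteins hold the dimers in the cytoplasm until IκB kinase marks them for degradation, and several IκB genes and *Tnfaip3* are themselves induced by NF-κB, which closes a negative feedback loop. In vascular smooth muscle the pathway is known for switching on chemokines, cytokines, and matrix-degrading enzymes.

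The κB sites that lie in the members' promoters are shown because induction of inhibitors by NF-κB runs through such sites. Promoter sequence came from RefSeq (GRCm38.p6) in windows of 300 bases, from 250 before to 50 after each transcription start. Of the 10 members, 7 were matched, with 10 windows in all, and *Nfkb1*, *Relb*, and *Nfkbiz* had no entry. The κB consensus, searched on both strands, was found in 7 of the 10 windows and in 5 of the 7 members (71.4%), namely *Nfkb2*, *Rel*, *Nfkbia*, *Nfkbie*, and *Tnfaip3*, and not in the windows of *Rela* and *Nfkbib*. It was present in 2779 of all 32841 windows (8.46%) and in 2581 of 27018 genes (9.55%). Each line below gives 30 bases on the gene's own strand, 5′ to 3′, with the match in capitals and its position counted from the start site. The *Nfkb2* site at −39 and the *Rel* site at −92 each overlap a further match that begins 1 base later, and that match is not printed.
*Nfkb2* at −39, chr19:46304688-46304717: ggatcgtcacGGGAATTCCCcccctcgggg
*Nfkb2* at −11, chr19:46304716-46304745: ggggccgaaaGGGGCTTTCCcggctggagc
*Nfkb2* at −236 of a further start, chr19:46305449-46305478: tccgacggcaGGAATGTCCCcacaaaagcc
*Nfkb2* at −225 of another start, chr19:46305695-46305724: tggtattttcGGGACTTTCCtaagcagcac
*Tnfaip3* at −125, chr10:19015516-19015545: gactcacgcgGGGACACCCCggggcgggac
*Tnfaip3* at −12, chr10:19015403-19015432: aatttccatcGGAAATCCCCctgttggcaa
*Rel* at −92, chr11:23771042-23771071: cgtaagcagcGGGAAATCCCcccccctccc
*Nfkbia* at −29, chr12:55492657-55492686: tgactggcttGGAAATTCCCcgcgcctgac
*Nfkbie* at −106, chr17:45555584-45555613: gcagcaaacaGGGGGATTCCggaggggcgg
A match describes letters in the window and does not show that a protein was bound there. Among 10762 tested genes with a window, 168 of the 1356 that held a match were higher in Hint1-/- MASMCs (12.4%) and 137 were lower (10.1%), against 10.7% and 9.91% of the 9406 that held none.

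The 8 libraries held between 20778077 and 20888041 estimated counts each. *Hint1*, the deleted gene, fell from 111 ± 1.72 CPM in WT to 35.6 ± 1.46 CPM in Hint1-/- MASMCs (SD, n = 4 each), with counts left at the locus in every Hint1-/- sample, where CPM is counts scaled by edgeR's library sizes to a common total. A gene is called changed below when edgeR's quasi-likelihood test gives it an adjusted p under 0.05, and 21.5% of the 13535 tested genes were called by that rule. Smooth muscle markers were present, led by *Acta2*, smooth muscle actin, at 826 ± 44.6 CPM in WT and 578 ± 15.6 CPM in Hint1-/- MASMCs, and 8 of the 10 markers changed, with 7 lower. Macrophage markers were also present in all samples and none was at 0, but *C1qa*, *C1qb*, *C1qc*, and *Mrc1* were near the floor, with genotype means from 0.31 to 1.51 CPM. *Lyz2*, lysozyme, stood at 1202 ± 88.0 CPM in WT and 966 ± 29.0 CPM in Hint1-/- MASMCs, and *Csf1r*, the receptor for macrophage growth factor, at 396 ± 21.1 and 305 ± 10.9 CPM. The labels do not state that the replicates came from separate mice, so p-values measure only the spread between these samples, which may be technical.

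Of the 10 members, 3 rose in Hint1-/- MASMCs and none fell, against the 21.5% of all tested genes that changed, the 11.2% that rose, and the 10.2% that fell. The 3 were *Nfkbiz*, *Tnfaip3*, and *Nfkb2*, and their rises were small, between 9.14% and 19.2% of the WT level. None passed a fold change of 1.5 in addition, which 2.83% of tested genes did. At an unadjusted p under 0.05 there were 6 members, a threshold that 32.8% of all tested genes passed. The mean was higher in Hint1-/- MASMCs for 8 members and lower for 2, *Relb* and *Nfkbib*. In 5 members the genotypes did not overlap, with every Hint1-/- sample above every WT sample, which was so for 11.9% of all tested genes (23.0% with either genotype above). The median log2 fold change of the members was 0.099, against 0.00031 over all genes tested. Their median absolute log2 fold change was also 0.099, against 0.088 over all genes and 0.071 over the 9741 genes that averaged 200 counts or more, a level that all 10 members reached. At that level 24.1% of genes changed.

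**Figure D1:**
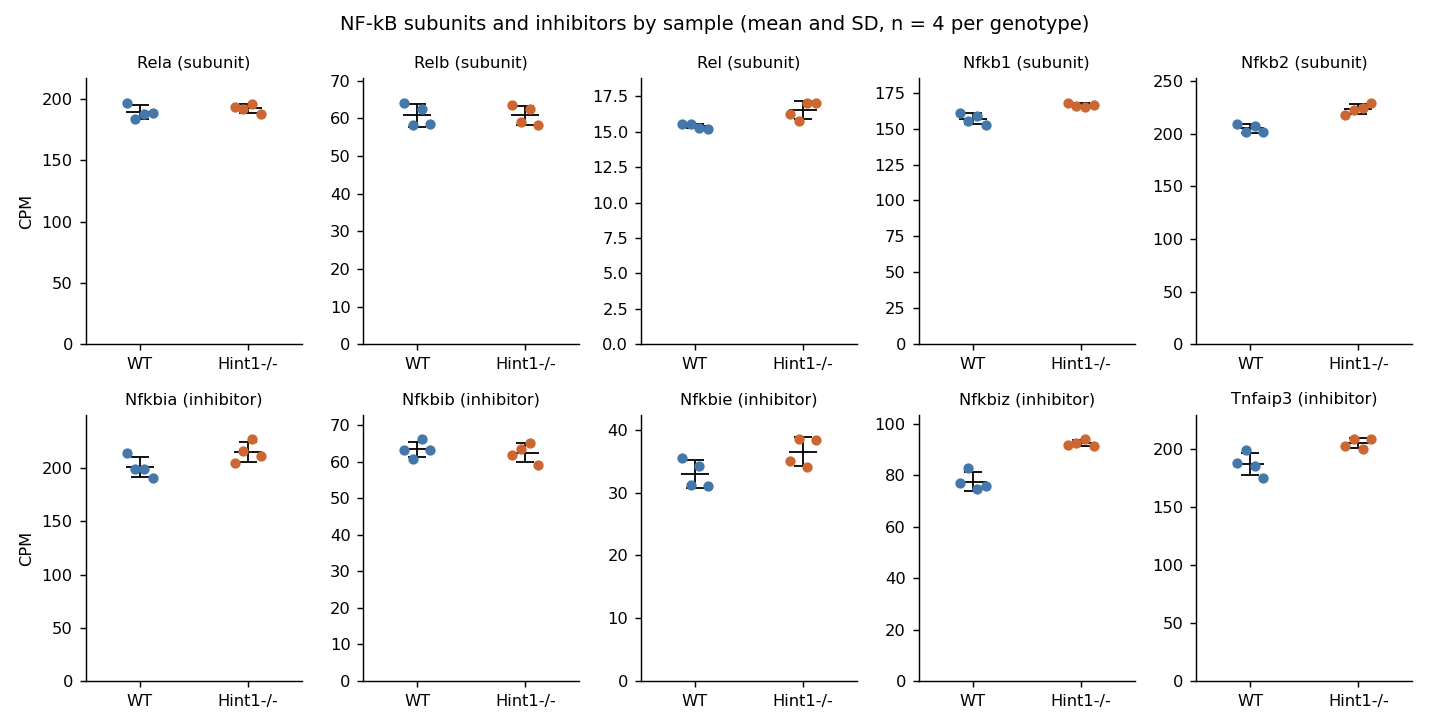
Level of each of the 10 members in CPM (vertical axes, each from 0) in the 4 WT and the 4 Hint1-/- samples. Points are samples, and the black bar and whiskers are the mean and SD. *Nfkbiz* shows the clearest gap, with WT samples from 74.8 to 82.9 CPM and Hint1-/- samples from 91.7 to 94.1 CPM, whereas *Rela* and *Relb* mix completely.

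Among the subunits, *Nfkb2* rose and the other 4 did not pass the test. *Nfkb2*, which encodes p100, the precursor of p52 and an inhibitor of RelB dimers before it is processed, measured 209, 202, 208, and 201 CPM in WT replicates 1 to 4. In Hint1-/- replicates 1 to 4 it measured 218, 223, 225, and 230 CPM. All Hint1-/- samples lay above all WT samples. The means were 205 ± 4.14 and 224 ± 4.85 CPM (SD, n = 4 each), a rise of 9.14% (95% interval 4.25% to 14.3%, log2 fold change 0.13, SE 0.031, adjusted p = 0.00709). *Nfkb2* lies at chr19:46304320-46312385 on the plus strand of mm10. This span follows GENCODE M21, and the κB sites printed above, counted from RefSeq starts, lie inside it. Its exons share 299 bases with *Psd* on the opposite strand and 531 with the long noncoding RNA *AC114539.1*, and whether counting used the strand is not given in the sources used here.

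*Nfkb1*, which encodes p105 and p50, the common partner of RelA, was the next subunit in order of adjusted p. It measured 161, 155, 159, and 153 CPM in the WT samples and 168, 166, 165, and 166 CPM in the Hint1-/- samples. The genotypes did not overlap, yet the difference did not pass across all genes. Its means were 157 ± 3.65 and 166 ± 1.26 CPM, and the log2 fold change, 0.08 with an SE of 0.031, had an adjusted p of 0.0634.

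*Rel*, which encodes c-Rel, the subunit best known from lymphocytes, was the least abundant member. It measured 15.6, 15.5, 15.3, and 15.2 CPM in WT and 16.3, 15.8, 17.1, and 17.1 CPM in Hint1-/- MASMCs. The samples did not overlap, but the closest pair differed by little, and the log2 fold change, 0.10 with an SE of 0.057, had an adjusted p of 0.228. The estimated counts of *Rel* and *Nfkb2* were whole numbers in 0 of the 8 samples and those of *Nfkbiz* and *Relb* in 1, as when a read fits more than a single gene and is divided, so the levels of these members carry an uncertainty that the counts do not show.

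*Rela*, the main activating subunit of the canonical pathway, stood at 190 ± 5.57 CPM in WT and 192 ± 3.33 CPM in Hint1-/- MASMCs. The highest and the lowest of its 8 values, 197 and 184 CPM, both came from WT samples. The 95% interval of its difference ran from −3.13% to 6.43% (adjusted p = 0.691), so a change larger than that was not seen in either direction. *Relb*, the activating partner of p52 in the noncanonical pathway, stood at 60.9 ± 2.99 and 60.8 ± 2.52 CPM. Its WT samples ranged from 58.1 to 64.2 CPM and its Hint1-/- samples from 58.2 to 63.5 CPM, which overlap almost fully (interval −6.0% to 6.24%, adjusted p = 0.992).

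Among the inhibitors, *Nfkbiz* and *Tnfaip3* rose and the 3 classical IκB genes did not pass the test. *Nfkbiz* encodes IκBζ, a nuclear IκB protein that binds p50 and is needed for a late set of NF-κB targets such as *Lcn2* and *Il6*, while restraining others. It measured 76.9, 82.9, 74.8, and 75.9 CPM in WT replicates 1 to 4, and 91.7, 92.6, 94.1, and 91.7 CPM in Hint1-/- replicates 1 to 4. The Hint1-/- samples lay close together and clear of all WT samples. The means were 77.6 ± 3.60 and 92.5 ± 1.14 CPM, a rise of 19.2% (95% interval 13.0% to 25.7%, log2 fold change 0.25, SE 0.037, adjusted p = 5.05e-05). This was the lowest adjusted p among the members. It lies at chr16:55811375-55838899 on the minus strand.

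*Tnfaip3* encodes A20, a ubiquitin-editing enzyme that shuts off signalling from TNF and Toll-like receptors. It measured 188, 199, 186, and 175 CPM in WT and 203, 208, 200, and 209 CPM in Hint1-/- MASMCs. WT replicate 2 reached to just under the lowest Hint1-/- sample, and no sample overlapped. The rise was 9.62% (95% interval 3.85% to 15.7%, log2 fold change 0.13, SE 0.037, adjusted p = 0.0151). Without WT replicate 4, the lowest sample, the adjusted p was 0.05003 and the call was lost. *Tnfaip3* lies at chr10:19000910-19015657 on the minus strand, and its κB sites at −125 and −12 are among those printed above. Those positions count from a RefSeq start, and both sites lie inside this span, which follows GENCODE M21.

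*Nfkbia*, which encodes IκBα, the fast feedback inhibitor of RelA dimers, measured 214, 199, 199, and 191 CPM in WT and 205, 216, 227, and 212 CPM in Hint1-/- MASMCs. WT replicate 1 lay above 2 of the Hint1-/- samples, so the groups overlapped. Its log2 fold change, 0.10 with an SE of 0.039, did not pass (adjusted p = 0.0887). *Nfkbie*, which encodes IκBε, a slower feedback inhibitor, measured 35.5, 31.2, 34.2, and 31.1 CPM in WT and 35.0, 38.5, 34.1, and 38.5 CPM in Hint1-/- MASMCs. Its samples also overlapped, and its log2 fold change of 0.15 (SE 0.054), although larger than that of *Tnfaip3*, did not pass (adjusted p = 0.0619). WT replicate 1 was the highest WT sample of both genes, and without it both passed, *Nfkbia* with an adjusted p of 0.0299 and *Nfkbie* with 0.0306. *Nfkbie* also passed without Hint1-/- replicate 3 (adjusted p = 0.0336).

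*Nfkbib* encodes IκBβ, an inhibitor that does not take part in rapid feedback. It stood at 63.3 ± 2.16 and 62.4 ± 2.65 CPM in WT and Hint1-/- MASMCs, with ranges of 60.9 to 66.1 and 59.1 to 65.2 CPM that overlapped (interval −6.94% to 4.39%, adjusted p = 0.767). Its exons share 42 bases with *Sirt2* and 314 with *Ccer2*, both on the opposite strand.

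**Figure D2:**
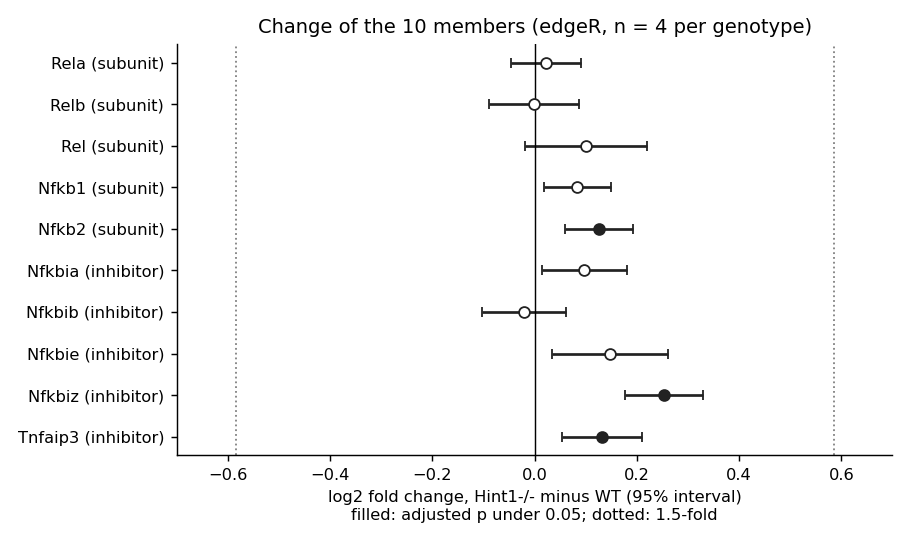
Log2 fold change of each member between Hint1-/- and WT MASMCs (horizontal axis, edgeR, n = 4 per genotype) with its 95% interval. Filled points have an adjusted p under 0.05, and dotted lines mark a fold change of 1.5. *Nfkbiz* lies farthest to the right at 0.25, *Nfkb2* and *Tnfaip3* follow as the other filled points at 0.13, and no interval reaches a dotted line.

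To compare members with each other, CPM was divided by the length of each gene's merged exons in kilobases. On this scale *Nfkbia* stood highest in WT at 124.8 ± 5.89 CPM per kilobase (SD, n = 4), followed by *Rela* at 61.7 ± 1.81, *Nfkb2* at 44.7 ± 0.904, and *Nfkbib* at 29.2 ± 0.996. *Tnfaip3* came next at 25.9 ± 1.34, then *Relb* at 15.7 ± 0.771 and *Nfkbiz* at 15.5 ± 0.717. *Nfkb1* stood at 13.0 ± 0.302, *Nfkbie* at 10.8 ± 0.721, and *Rel* at 2.06 ± 0.0231 CPM per kilobase. In WT the only neighbours in this order whose samples overlapped were *Relb* and *Nfkbiz*. In Hint1-/- MASMCs *Nfkbiz*, at 18.4 ± 0.228, stood above *Relb*, at 15.7 ± 0.648, without overlap, and *Nfkbib* and *Tnfaip3* overlapped instead. The order depends on the length used. *Nfkb1* has 12061 bases of merged exons but a longest transcript of 4149 bases, and on that transcript it reached 37.8 CPM per kilobase in WT, which moved it from rank 8 to rank 4.

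**Figure D3:**
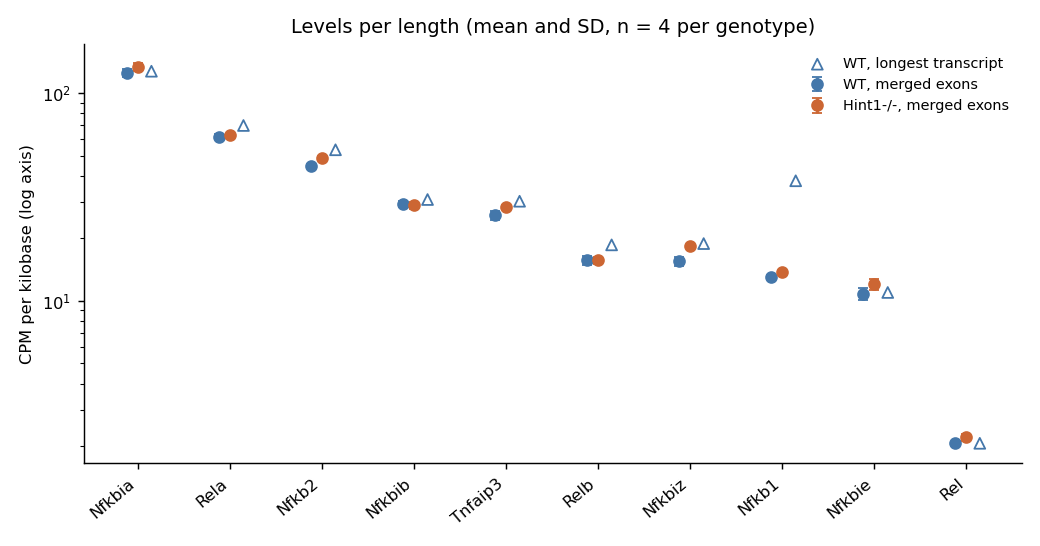
Level of each member per kilobase of its merged exons (vertical log axis, CPM per kilobase) in WT and Hint1-/- MASMCs, as mean and SD of 4 samples. Open triangles give the WT mean per kilobase of the longest transcript. *Nfkbia* leads at 124.8 in WT and *Rel* is lowest at 2.06, and the triangle lies farthest from its point for *Nfkb1*.

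Shares of the members within the subunits and within the inhibitors were also compared. Shares of a group sum to a whole, so a share can fall because another member rose. As a share of the summed level per length of the 5 subunits, *Nfkb2* made up 32.2% to 32.9% in the WT and 33.2% to 35.2% in the Hint1-/- samples, which did not overlap. *Rela* made up 44.4% to 45.5% in WT and 43.0% to 44.1% in Hint1-/- samples, also without overlap. Its own level in CPM did not pass the test (adjusted p = 0.691). The shares of *Relb*, *Rel*, and *Nfkb1* overlapped. Among the 5 inhibitors, *Nfkbiz* took 7.13% to 8.01% in WT and 8.19% to 8.56% in Hint1-/- samples. *Nfkbib* took 13.6% to 14.8% and 12.5% to 13.4%, while its own level did not pass either (adjusted p = 0.767). *Nfkbia*, the largest share, took 60.0% to 61.8% and 59.5% to 61.7%, which overlapped, as did the shares of *Nfkbie* and *Tnfaip3*. The separations of *Nfkb2*, *Rela*, *Nfkbiz*, and *Nfkbib* were also present with the length of the longest transcript. On merged exons, the ratio of the 3 classical IκB genes together to the 5 subunits was 1.20 ± 0.0234 in WT and 1.22 ± 0.0396 in Hint1-/- MASMCs, with overlapping samples. It leaves out *Nfkbiz* and *Tnfaip3*, the inhibitors that rose. Its value depends on the length used, since *Nfkb1* has 12061 bases of merged exons and a longest transcript of 4149. Without length, the 5 inhibitors summed to 537 to 577 CPM in WT and 596 to 620 CPM in Hint1-/- samples. The 5 subunits summed to 615 to 648 and 655 to 666 CPM. The shares and ratios are descriptions of transcript levels and were not tested.

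The genes that carry signals to NF-κB, or damp them upstream, were described from a list of 55 receptors, adaptors, kinases, and regulators, of which 54 were tested. Of these, 12 changed (22.2%, against 21.5% of all genes), 8 higher and 4 lower, and none passed a fold change of 1.5. The median log2 fold change of the list was 0.014. Among the 12 negative regulators other than IκB proteins, 3 rose and 1 fell. *Zc3h12a*, which encodes Regnase-1, a ribonuclease that degrades *Il6* and other inflammatory mRNAs, rose from 39.1 ± 0.974 to 52.6 ± 0.796 CPM, or by 0.43 on the log2 scale (SE 0.037, adjusted p = 1.1e-07). *Irak3*, an inhibitory member of the IRAK family, rose from 39.1 ± 0.815 to 47.8 ± 2.87 CPM (0.29, adjusted p = 0.000103). *Tnip1*, whose protein binds A20, rose from 306 ± 12.7 to 334 ± 6.31 CPM (0.13, adjusted p = 0.0105), a log2 fold change like that of *Tnfaip3* itself. *Pdlim2*, which marks nuclear RelA for degradation, fell by 0.19 (adjusted p = 0.00774).

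The subunits of IκB kinase did not pass the test. *Chuk*, *Ikbkb*, and *Ikbkg*, which encode the catalytic subunits and the regulatory subunit NEMO, had log2 fold changes of 0.02, −0.09, and −0.004, with adjusted p of 0.784, 0.0929, and 0.954. *Map3k14*, the kinase of the noncanonical pathway that acts on p100, stood at 13.0 ± 0.308 and 12.4 ± 0.422 CPM (adjusted p = 0.488). Of the 13 genes for these and related kinases, their cofactors, and the linear ubiquitin ligase complex LUBAC, *Ikbke*, an IκB kinase-related kinase, was the 1 that passed, rising from 95.3 ± 3.45 to 109 ± 4.63 CPM (log2 fold change 0.20, adjusted p = 0.000979). Of the 15 genes for adaptors, TRAF and cIAP proteins, and receptor-proximal IRAK and RIP kinases, 3 rose and 2 fell. *Birc2*, a ubiquitin ligase of the TNF receptor complex that also keeps *Map3k14* protein low, rose by a log2 fold change of 0.24 (adjusted p = 0.000821). *Myd88*, the adaptor of Toll-like and IL-1 receptors, fell by 0.19 on the log2 scale (adjusted p = 0.000944), as did *Traf1* (adjusted p = 0.00581). Of the 11 receptors tested, *Tnfrsf11a*, which encodes RANK, was the 1 that passed, and it fell from 6.73 ± 0.398 to 4.99 ± 0.411 CPM (−0.43, adjusted p = 0.00288).

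Of the 3 further IκB family genes, *Bcl3*, a nuclear partner of p50 and p52, rose from 75.7 ± 1.66 to 81.6 ± 1.58 CPM (log2 fold change 0.11, adjusted p = 0.0259). That call was lost in DESeq2 (adjusted p = 0.0627) and without any of WT replicates 3 and 4 and Hint1-/- replicates 1, 3, and 4. *Nfkbid*, which encodes another nuclear IκB protein, stood at 15.4 ± 0.794 and 14.1 ± 0.768 CPM and did not pass (adjusted p = 0.152). *Bcl3*, *Nfkbid*, the kinases other than *Ikbke*, and several targets below were named after their values had been seen.

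Genes known as NF-κB targets moved further than the members did. Of 35 listed targets, 34 were tested and 21 changed (61.8%, against 21.5% of all tested genes), 18 higher and 3 lower. A fold change of 1.5 was also passed by 12, 10 of them higher, and by 2.83% of all tested genes. The list's median log2 fold change was 0.21, against 0.099 for the members. The list includes *Lcn2*, *C3*, *Cfb*, *Cxcl1*, and *Cxcl5*, which were known from earlier results of these samples to be higher. Its count and median are therefore not independent evidence of direction or size.

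All 9 enzymes and acute phase genes changed, 8 of them higher, against 21.5% of all tested genes that changed and 11.2% that rose. *Lcn2*, *C3*, and *Cfb* among them were known beforehand to be higher, so this count was partly fixed in advance. *Lcn2*, the iron-binding protein lipocalin 2 and a textbook target of IκBζ, rose from 109 ± 4.11 to 435 ± 38.1 CPM, or by 1.99 on the log2 scale (SE 0.052, adjusted p = 2.08e-15). *Nos2*, inducible nitric oxide synthase, rose from 44.0 ± 8.95 to 147 ± 18.2 CPM (1.74, adjusted p = 4.68e-10). *Mmp3*, the matrix-degrading stromelysin, rose from 1746 ± 99.7 to 3350 ± 192 CPM (0.94, adjusted p = 2.16e-11). *Mmp9*, a gelatinase, was the gene of this group that fell, from 6.29 ± 0.421 to 3.72 ± 0.583 CPM (−0.76, adjusted p = 9.2e-05).

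Of the 8 chemokines, 5 rose and 1 fell, and *Cxcl1* and *Cxcl5* among the 5 were known beforehand to be higher. *Cxcl5*, a neutrophil attractant, rose from 299 ± 20.8 to 665 ± 36.0 CPM (1.15, adjusted p = 1.89e-12). *Cxcl10*, which interferon also induces, fell from 228 ± 54.1 to 124 ± 16.9 CPM (−0.88, adjusted p = 3.17e-05). Of the 6 cytokines and growth factors tested, 3 rose and 1 fell. *Csf3*, the granulocyte growth factor, rose from 9.60 ± 1.49 to 18.1 ± 2.10 CPM (0.91, adjusted p = 1.57e-06) and *Il6* from 77.0 ± 7.81 to 101 ± 4.49 CPM (0.39, adjusted p = 3.52e-05). *Tnf* measured 116 ± 6.0 and 105 ± 6.88 CPM (−0.14, adjusted p = 0.0369), with overlapping samples, and that call was lost with the trend over length and GC content removed and without any of WT replicates 2, 3, and 4 and Hint1-/- replicates 1, 2, and 4.

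Adhesion genes did not pass, and few survival and stress genes did. None of the 3 adhesion genes passed, with *Vcam1* at 1635 ± 41.6 and 1587 ± 39.1 CPM (adjusted p = 0.389) and *Icam1* at 589 ± 30.4 and 582 ± 20.0 CPM (adjusted p = 0.83). Of the 8 survival and stress genes, 2 rose, among them *Sod2*, mitochondrial superoxide dismutase, from 292 ± 9.48 to 352 ± 1.72 CPM (0.27, adjusted p = 4.02e-06).

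**Figure D4:**
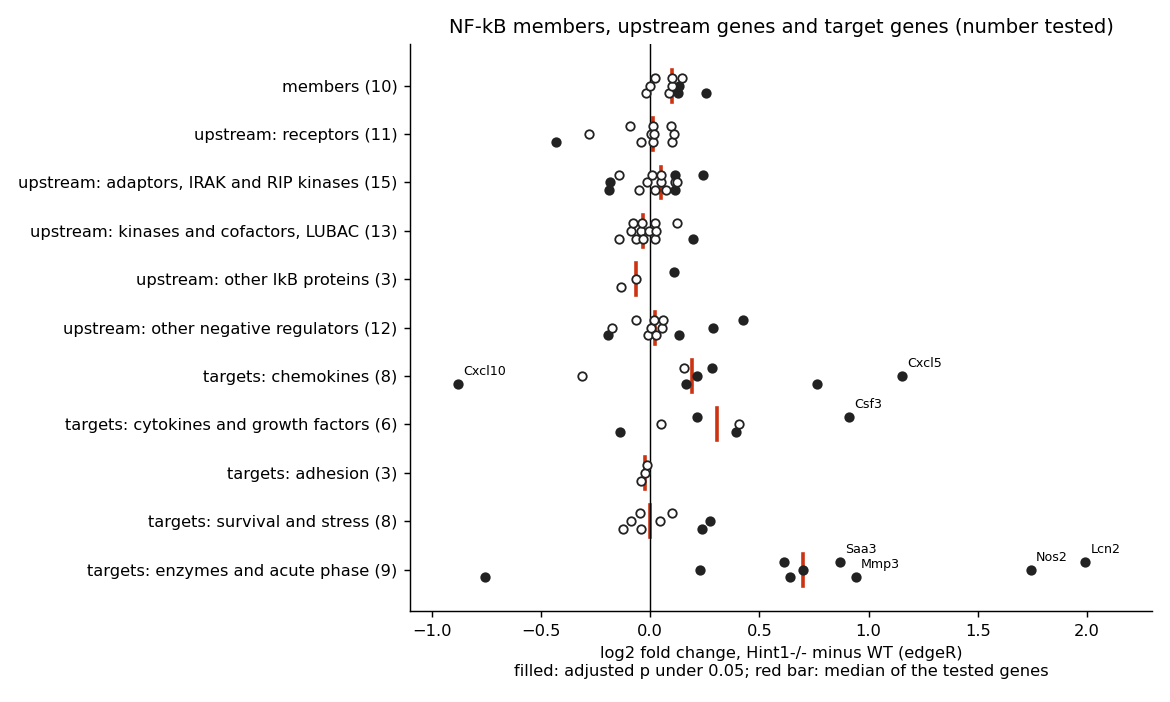
Log2 fold change between Hint1-/- and WT MASMCs (horizontal axis, edgeR) of every tested member, upstream gene, and target gene, grouped by role with the number tested in parentheses. Filled points have an adjusted p under 0.05, and red bars are group medians. The median is 0.099 for the members and from −0.067 to 0.047 for the upstream groups, whose genes reach 0.43 for *Zc3h12a* and −0.43 for *Tnfrsf11a*. The enzymes and acute phase genes spread to 1.99 for *Lcn2*.

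Macrophages also express NF-κB genes, and most macrophage markers moved with genotype in the opposite direction to the members that rose. They moved in the same direction as the 4 upstream genes and the 3 target genes that fell. Of the 11 markers tested, 7 fell and 1 rose, *C1qc*, which stood near the floor at 0.31 and 0.69 CPM. The summed level of the list ran from 2511 to 2887 CPM in the WT and from 2071 to 2213 CPM in the Hint1-/- samples. *Cd68*, a macrophage lysosomal protein, fell by 0.44 on the log2 scale (SE 0.042, adjusted p = 3.15e-07) and *Adgre1*, which encodes F4/80, by 0.37 (SE 0.047, adjusted p = 1.17e-05). *Ptprc*, which encodes the leukocyte antigen CD45, fell by 0.31 (adjusted p = 0.000155) and was the 1 of the 4 tested lymphocyte and dendritic cell markers to change. The summed level of that list was 55.8 to 62.8 CPM in WT and 44.7 to 50.4 CPM in Hint1-/- samples. None of the 6 endothelial markers tested passed in edgeR, and their sums of 6.53 to 9.18 and 6.68 to 8.75 CPM overlapped. Of the 8 fibroblast markers, 3 rose and 3 fell. *Pdgfra*, *Dcn*, and *Lum* rose, by log2 fold changes of 0.33, 0.83, and 0.88, and *Col1a1*, *Col1a2*, and *Dpt* changed by −0.17, −0.19, and −0.79. The sums of the list, 8406 to 9336 and 8619 to 9271 CPM, overlapped, but they are made up largely of the 2 collagens and hide these opposite changes. Fewer cells of a type and less RNA per cell cannot be told apart in bulk samples. The part of such cells in the changes of the members, the upstream genes, and the targets was not tested.

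**Figure D5:**
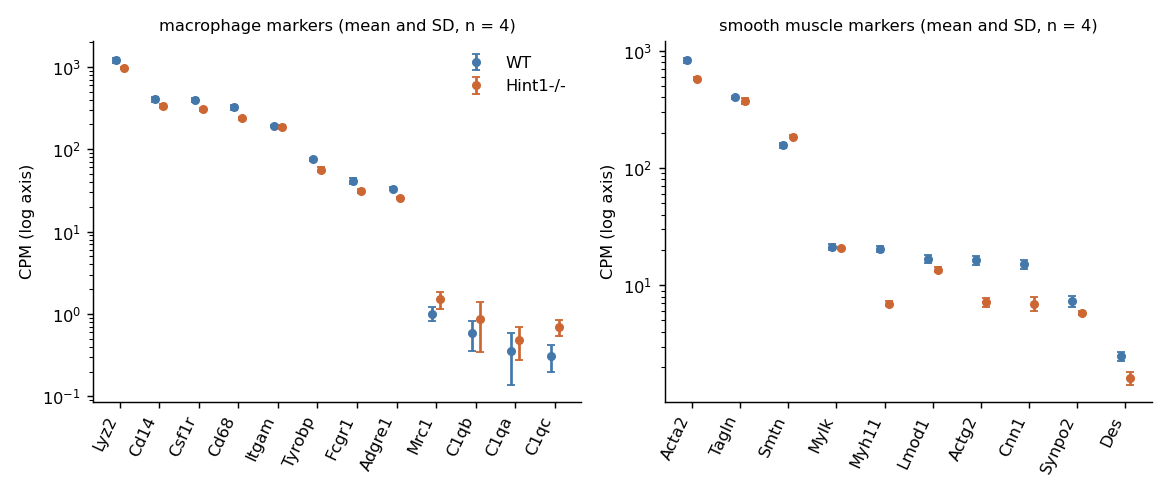
Level in CPM (vertical log axes) of the macrophage markers and the smooth muscle markers in WT and Hint1-/- MASMCs, as mean and SD of 4 samples each, ordered by the WT level. *Lyz2* leads the macrophage list at 1202 CPM in WT and 966 CPM in Hint1-/- MASMCs, and *Acta2* leads the smooth muscle list at 826 and 578 CPM.

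The summed level of the 10 smooth muscle markers was 1396 to 1514 CPM in WT and 1150 to 1241 CPM in Hint1-/- samples. *Myh11*, smooth muscle myosin heavy chain, fell by 1.54 on the log2 scale (SE 0.067, adjusted p = 5.28e-12), *Cnn1*, calponin, by 1.12 (SE 0.092, adjusted p = 4.99e-08), and *Acta2* by 0.51 (SE 0.038, adjusted p = 1.35e-08). *Tagln*, transgelin, measured 403 ± 12.2 and 374 ± 22.2 CPM and did not pass (adjusted p = 0.0696). *Smtn*, smoothelin, was the marker that rose, by 0.25 on the log2 scale (SE 0.038, adjusted p = 9e-05), the same size as that of *Nfkbiz*. By q-PCR, the study reports higher *Acta2*, *Tagln*, and *Cnn1* in PDGF-BB-treated Hint1-/- MASMCs than in WT, the opposite direction to the means here. The cause of this difference was not tested.

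The genes whose level followed *Nfkbiz*, the member with the lowest adjusted p, most closely over the 8 samples were *Skil*, *Kif20b*, and *Sgpp1*, out of 11848 genes compared. Pearson's r of log2 CPM was 0.992, 0.989, and 0.987. The samples fall into 2 genotypes that differ for all these genes, so r mainly reflects that split. The log2 fold change between the genotypes was 0.20 for *Skil*, a corepressor of TGF-β signalling, 0.35 for *Kif20b*, a mitotic kinesin, and 0.26 for *Sgpp1*, a sphingosine-1-phosphate phosphatase.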

How the data were processed

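RNA-Seq was performed on 8 MASMC samples. The authors sequenced short reads on a BGISEQ-500 and mapped them to mm10. Their methods name HISAT2, and the submitters' processing notes name Bowtie2, RSEM 1.3.1, and DESeq2 1.4.5. The annotation is not given in the sources used here. The deposited values are the authors' estimated counts for each gene symbol, without normalization. These were rounded to whole numbers. Groups were set by the genotype in the labels.

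Genes were filtered with filterByExpr, normalized by TMM, and compared with edgeR 4.0.16 (glmQLFit and glmQLFTest, genotype as the only term, two-sided, Benjamini-Hochberg adjustment over 13535 genes) in R 4.3.3. The pipeline was also run on simulated counts with the spread of these samples, which cannot show whether that spread is technical. Standard errors are the log2 fold change divided by the square root of F. Total counts of 20778077 to 20888041 per sample and a biological coefficient of variation of 3.79% set the precision. A chi-square statistic per gene, about 1 for sampling noise alone, was 2.09 to 5.50 between replicates, so no pair of replicates differed by as little as sampling noise. Same-numbered WT and Hint1-/- samples did not deviate together in every pair (correlations −0.049 to 0.183), so the numbers were not used as pairs.

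The members and lists were chosen with earlier results of these data known. Genes were named by rule: the members, *Hint1*, up to 5 upstream and 5 target genes per direction with the largest change and a mean of at least 50 counts, the 3 genes most correlated with the member of lowest adjusted p, and defining cell markers. Positions and lengths came from GENCODE M21 on mm10. Some listed lymphocyte markers are not reported here. In the upstream and target lists, *Il1b* and *Tnfrsf13c* were too low to test, as were several cell type markers.

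Alternatives were DESeq2 1.42.0, limma-voom (limma 3.58.1), DESeq2's size factors, upper-quartile normalization, the replicate number as a block, leaving the 20 most abundant genes out of library sizes, no filter, a minimum of 10 counts in each sample, removal of each library's trend over length and GC content, each sample left out, a fold change of 1.5, and the longest transcript as gene length.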

Additional observations from a re-analysis of the deposited data

Results flagged for a closer look

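In each group of 4 samples, the gap between the highest or lowest sample and its nearest neighbour was divided by the group's whole range. Across 40 named genes and both genotypes, 80 groups were looked at, 3 stood out, and chance alone does so in about 1 in 20 groups. None was a member of the NF-κB subunits and inhibitors. *Mmp3* in WT replicate 2 had a gap of 0.909 of the range, and *Acta2* in the same sample had a gap of 0.837, both lower than the other WT samples. *Bcl3* in WT replicate 1 had a gap of 0.932 of the range, at 78.2 CPM against 74.8 to 75.0 CPM in the other WT samples.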

How the results depend on the processing

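Of the 10 members, 3 passed the test, and 3 also passed with the replicate number as a block (3082 of all genes, against 2907 without it), a fit that changed no member's call. The labels do not say whether same-numbered samples share a batch, and whether they do was not settled here. With a fold change over 1.5 required as well, 0 members passed, and 383 of all genes. With the trend over length and GC content removed, 5 members passed, adding *Nfkbia* (adjusted p = 0.0152) and *Nfkbie* (0.0281). With each sample left out in turn, between 2 (without WT replicate 4) and 5 (without WT replicate 1) passed. *Relb* and *Nfkbib*, near 0 in every fit, changed sign, to log2 fold changes of 0.012 and 0.016 with the trend removed and over ranges of −0.022 to 0.026 and −0.042 to 0.0051 with a sample left out. The cause was not tested. *Nfkbiz* (0.24 to 0.29, adjusted p 3.07e-07 to 0.000522) and *Nfkb2* (0.11 to 0.14, adjusted p 0.00147 to 0.0249) passed in each of the other 17 fits run. In level per length, 6 of the 10 members kept their WT rank with the longest transcript. Of 510 values for the other 30 named genes, 494 kept their call, 13 lost it, 3 gained it, and 0 reversed. For members that did not pass, the 95% interval (for *Rela*, −3.13% to 6.43%) bounds the differences between these samples that could have been missed at this depth with 4 per genotype. The interval rests on the spread between these samples, which may be technical, so it does not bound a difference between mice.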
